A study of Mus musculus with 18 samples.

Results

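How far single oocytes of the same stage and genotype agree in their CpG methylation was examined in all 18 deposited mouse oocyte libraries. Every pair of oocytes within a stage and genotype was formed, which gave 38 of the 153 possible pairs. Methylation had been read by reduced representation bisulfite sequencing, in which DNA is cut with MspI and CpG-rich fragments are converted and sequenced. The secondary follicle (SF) oocytes were 7 wild type (WT) and 5 Sall4 knockout (KO), giving 21 and 10 pairs. The early antral follicle (EAF) oocytes, a later growth stage, were 4 wild type and 2 knockout, giving 6 pairs and 1 pair. Knockout oocytes came from Sall4fl/fl;Zp3-Cre females and the controls, labelled wild type, from Sall4fl/fl females, so both genotypes carried floxed Sall4 alleles and the Cre was in the knockout. Zp3-Cre acts in growing oocytes, and Sall4 encodes a zinc finger transcription factor. The labels list P12.5 and P17.5 as ages without tying either to a stage.

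Growing mouse oocytes gain DNA methylation from a nearly unmethylated start, through DNMT3A and its cofactor DNMT3L, mostly across transcribed gene bodies, while most CpG islands stay unmethylated. Because this gain proceeds locus by locus, oocytes caught during growth can hold the same locus in different states. Agreement between single oocytes therefore describes whether CpGs read as methylated sit at shared positions or at positions that differ between libraries. Reads of a CpG can be PCR copies of the same molecule. A call need not stand for every DNA copy in the cell, which was not tested.

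A CpG was compared in a pair where both oocytes had at least 5 reads on an autosome. It was called high at a methylation level of 80% or above, low at 20% or below, and between otherwise. A shared CpG was both high, both low, opposite (high in an oocyte and low in its partner) or other, the last with at least 1 oocyte between. The expected share was the product of the pair's own shares of high and low CpGs over the same CpGs, as if the states were placed independently. An oocyte had 19192 to 194880 such CpGs, with a median of 8 to 18 reads, and counts summed over CpGs of 464501 (SF WT 3) to 6518646 (SF KO 2). Every SF knockout library had more summed counts (3688890 or more) than every SF wild-type library (3665846 or fewer). SF knockout pairs shared 49727 CpGs on average and SF wild-type pairs 14767. Genotype at the SF stage therefore cannot be told apart from depth and from which CpGs were read. High CpGs made up 3.16% to 19.1% of an SF wild-type oocyte, 4.77% to 14.6% of an SF knockout, 14.1% to 16.7% of an EAF wild-type oocyte, and 4.09% and 6.24% of the EAF knockout oocytes. As a library holds 1 cell and the labels give no animal, a group counts as 1 sample and no test was made. SDs and ranges describe pairs, and pairs that share an oocyte are not independent. SF KO 1 stood apart within its group, and SF WT 3 was the shallowest library, so values without them are given for several measures.

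EAF wild-type oocytes agreed most on average on where methylation lay, and the pair of EAF knockout oocytes agreed less than any of them. Of the CpGs high in an EAF wild-type oocyte, 57.0% ± 1.70 (SD, n = 6 pairs) were also high in its partner and 17.4% ± 1.19 were low there, both directions pooled. In the 6 pairs the share also high was 54.7%, 55.8%, 56.4%, 57.6%, 58.7% and 59.1%. In the knockout pair it was 35.2%, and 40.5% were low in the partner. Asked in each direction, 311 of 849 high CpGs of EAF KO 1, or 36.6% (exact binomial 95% interval 33.4% to 40.0%), were high in EAF KO 2. The reverse share was 311 of 916, or 34.0% (30.9% to 37.1%). Every EAF wild-type pair lay above both, although the knockout value rests on a single pair. The binomial intervals here and below cover counting error only and take CpGs as independent. Neighbouring CpGs can lie on the same read, so the intervals are likely too narrow.

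Among SF oocytes the same order was seen with some overlap. The share of high CpGs also high in the partner was 44.1% ± 6.59 (SD, n = 21 pairs) in wild type and 32.1% ± 1.92 (SD, n = 10 pairs) in knockout. Wild-type pairs ran from 29.0% through a median of 45.5% to 55.3%, and knockout pairs from 29.3% through 32.0% to 34.3%. Of the 21 wild-type pairs, 19 lay above every knockout pair, 1 lay below all of them and the remaining pair fell among them. The lowest wild-type pairs, at 29.0%, 33.5%, 34.7% and 37.5%, all held SF WT 3. Without SF WT 3 the wild-type mean was 47.4%, and without SF KO 1 the knockout mean was 32.8%. High CpGs that were low in the partner made up 32.2% ± 6.85 in wild type and 43.8% ± 2.97 in knockout.

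**Figure D1:**
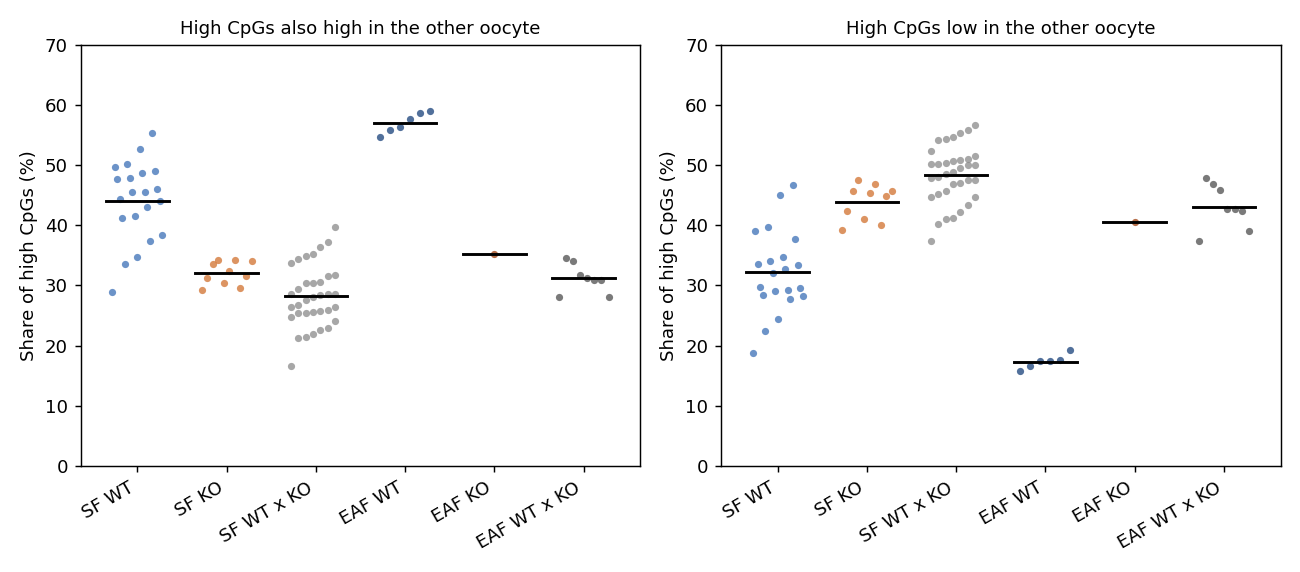
Share of high CpGs (%) that were also high (left) or low (right) in the other oocyte of a pair. Each point is a pair of oocytes, bars are means, and WT x KO marks pairs of a wild-type with a knockout oocyte of the same stage. EAF wild-type pairs sit at 54.7% to 59.1% on the left, above the EAF knockout pair at 35.2%, while the SF genotypes overlap.

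Chance overlap depends on how many CpGs are high in each oocyte, so shares over all shared CpGs were set against their expected values. For high CpGs also high in the partner, the expected share was 10.2% in EAF wild type and 3.75% in EAF knockout. It was 6.53% in SF wild type and 5.76% in SF knockout. By density, by how widely CpGs were read, by chromosome and on the X, that share is given without its expected value. It also reflects the levels of the oocytes there. Both-high CpGs were 5.90% ± 0.648 of shared CpGs in EAF wild-type pairs against 1.06% expected. In the EAF knockout pair they were 1.32% (exact binomial 95% interval 1.18% to 1.48%) against 0.141% expected. In SF pairs they were 3.14% ± 1.37 against 0.50% in wild type and 2.04% ± 0.667 against 0.401% in knockout. The SF knockout share was 1.54% ± 0.118 (n = 6 pairs) without SF KO 1. All groups thus held several times more both-high CpGs than independent placement would give. The ratio of observed to expected was 5.61 ± 0.365 in EAF wild type, 9.40 in EAF knockout, 7.52 ± 2.43 in SF wild type and 5.94 ± 1.6 in SF knockout. This ratio can grow as levels fall, because it has a ceiling set by the larger share of high CpGs in the pair.

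A coefficient that runs from 0 at the expected share to 1 at the largest share the pair's own levels allow removes that ceiling. It was 0.582 ± 0.0454 (SD, n = 6 pairs) in EAF wild type, range 0.529 to 0.652, and 0.341 in the EAF knockout pair. In SF pairs it was 0.512 ± 0.0951 in wild type, range 0.289 to 0.668, and 0.381 ± 0.0665 in knockout, range 0.318 to 0.487. In SF knockout the 4 highest values were the 4 pairs with SF KO 1, at 0.419 to 0.487. The remaining knockout pairs were at 0.318 to 0.348, and the knockout mean was 0.332 without SF KO 1. So at both stages the wild-type mean was the larger on this measure too, with knockout minus wild-type differences of -0.242 at EAF and -0.131 at SF.

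Both-low CpGs were the commonest class, and their share differed between genotypes at the EAF stage more than at the SF stage. They made up 46.5% ± 2.88 of shared CpGs in EAF wild-type pairs against 32.0% expected, and 65.9% in the EAF knockout pair against 55.9% expected. SF pairs had a both-low share of 64.0% ± 11 in wild type against 53.1%, and of 59.9% ± 8.74 in knockout against 50.4%. The SF difference was -4.15 points, less than the SD over pairs of either genotype, and its sign changed to 0.249 points without SF WT 3 and to 2.57 points without SF KO 1.

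Opposite states were rarer than expected in all 38 pairs. They made up 3.60% ± 0.487 of shared CpGs in EAF wild type against 11.7% expected, and 3.04% (exact binomial 95% interval 2.82% to 3.27%) in the EAF knockout pair against 5.62%. SF pairs had opposite states at 4.17% ± 1.17 against 9.65% in wild type, and 5.64% ± 2.10 against 9.26% in knockout. The 4 pairs with SF KO 1 had 6.90% to 8.74%, and without that oocyte the knockout share was 4.08% ± 0.444 (n = 6 pairs) against 7.05% expected, below the wild-type mean. The observed share divided by the expected share was 0.307 ± 0.0263 in EAF wild type, range 0.262 to 0.333, and 0.541 in the EAF knockout pair. It was 0.439 ± 0.0647 in SF wild type, range 0.323 to 0.556, and 0.60 ± 0.0465 in SF knockout, range 0.538 to 0.662. Of the 10 SF knockout pairs, 7 lay above every SF wild-type pair, and 19 of the 21 wild-type pairs lay below every knockout pair. The plain share of opposite CpGs did not separate the EAF genotypes, whereas the ratio to the expected share did.

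**Figure D2:**
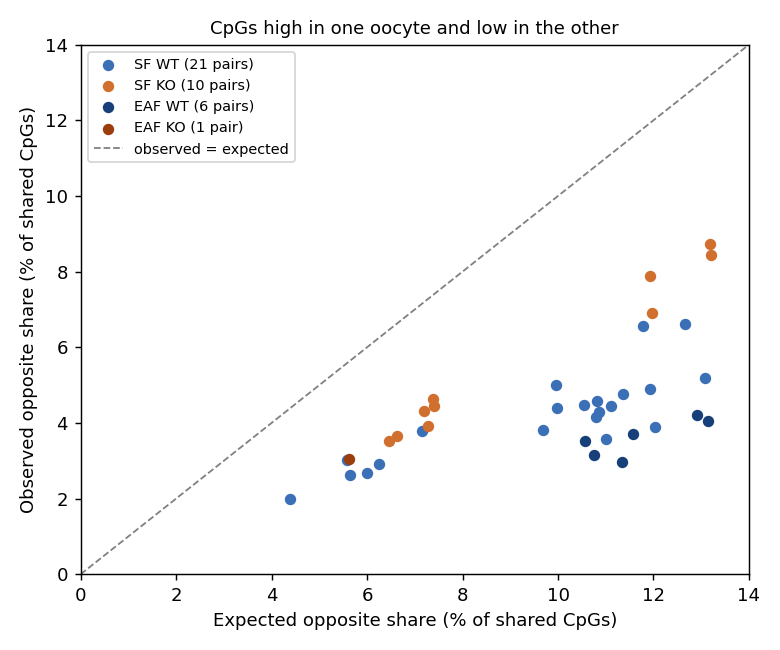
Observed against expected share of opposite CpGs, in % of shared CpGs, with a point for each of the 38 pairs and a dashed line where both are equal. All pairs lie below the line. EAF wild-type pairs are at 0.262 to 0.333 of the expected share, a range that also holds 2 SF wild-type pairs, at 0.323 and 0.325.

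Pairs that crossed the stages kept the order of the genotypes. Wild-type pairs that crossed the stages had 47.6% ± 6.22 (SD, n = 28 pairs) of high CpGs also high in the partner and an opposite ratio of 0.393 ± 0.0636. Those values lay between the SF and the EAF wild-type means. Knockout pairs that crossed the stages had 34.0% ± 1.83 (n = 10 pairs) and 0.567 ± 0.0549. Pairs of unlike genotype that crossed the stages had 29.0% ± 5.00 (n = 34 pairs) and 0.662 ± 0.0461. Within each stage, pairs of a wild-type and a knockout oocyte had the lowest mean share also high and the highest mean opposite ratio. In SF pairs of this kind 28.2% ± 5.10 (n = 35 pairs) of their high CpGs were also high in the partner and the opposite ratio was 0.658 ± 0.0572. At the EAF stage the values were 31.2% ± 2.39 (n = 8 pairs) and 0.636 ± 0.0431. Their both-high coefficient was not the lowest, at 0.480 against 0.341 in the EAF knockout pair, and at 0.389 against 0.381 in SF knockout pairs.

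**Figure D3:**
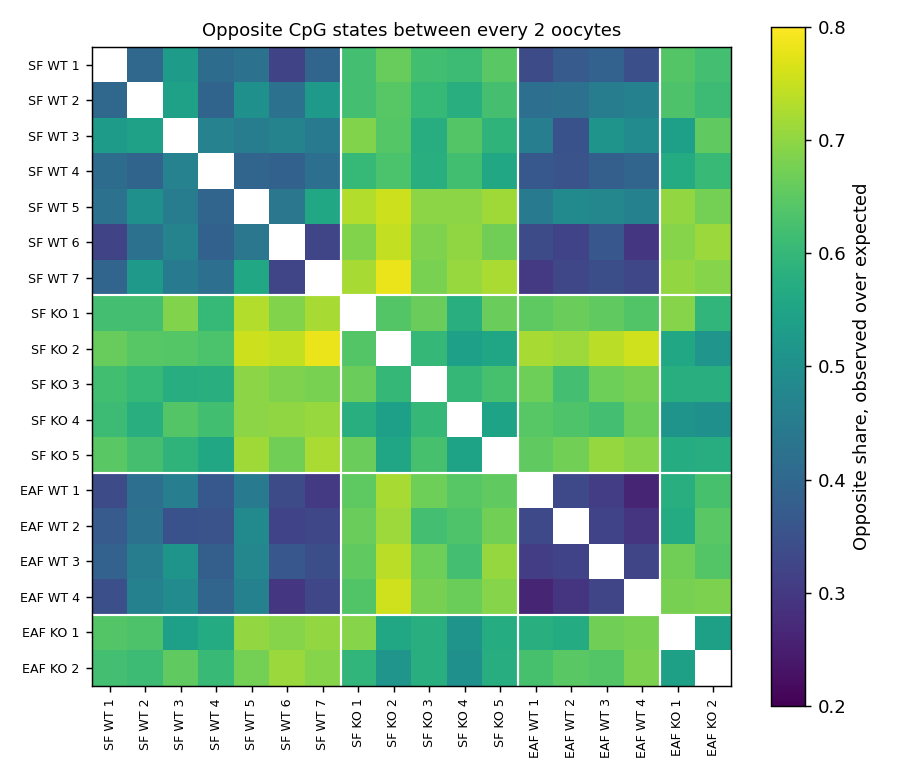
Observed over expected share of opposite CpGs between every 2 of the 18 oocytes, as colour from 0.2 (dark, few opposite states) to 0.8 (light). White lines separate the 4 groups. The 11 wild-type oocytes form the darkest blocks within and across stages, and blocks that pair wild type with knockout are the lightest.

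Each oocyte's high CpGs were also taken in turn. For a wild-type and a knockout oocyte, the shares in both directions count the same CpGs high in both. They differ only because the oocytes differ in how many CpGs are high. No expected share was set beside them. High CpGs of an EAF knockout oocyte were high in 53.5% of cases in an EAF wild-type oocyte (44.5% to 59.7% over 8 ordered pairs). They were high in only 35.3% of cases in the other knockout oocyte. High CpGs of an EAF wild-type oocyte were high in 57.7% of cases in another wild-type oocyte and in 22.1% of cases in a knockout oocyte. Among SF oocytes, high CpGs of a knockout oocyte were high in 43.3% of cases in wild type and 34.9% in another knockout oocyte. High CpGs of an SF wild-type oocyte were high in 46.3% of cases in wild type and in 22.8% in knockout. So high CpGs of a knockout oocyte were on average found more often in wild-type oocytes than in another knockout oocyte. Wild-type oocytes had more high CpGs at the EAF stage. On the CpGs compared they had more on average at the SF stage too, as the 43.3% and 22.8% show. Over all their CpGs, SF WT 3 at 3.16% and SF KO 1 at 14.6% were exceptions. Shared positions and levels therefore cannot be told apart here.

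Pairs were also compared at CpGs high in an outside wild-type oocyte. For each pair, CpGs high in an EAF wild-type oocyte that was not in the pair were taken, and values were averaged over such oocytes. EAF wild-type pairs had 2 such oocytes and the other pairs 4. Only CpGs read in both partners counted. Pairs therefore rest on different CpGs, from 128.5 on average (SF WT 3 and 7) to 2377.75 (SF KO 1 and 2). At these CpGs the mean share called high was 51.3% in EAF wild-type pairs, 36.6% in SF wild type, 22.1% in SF knockout and 21.6% in the EAF knockout pair. Both partners were high at 36.2% ± 6.30 of these CpGs in EAF wild-type pairs against 26.7% expected, and at 9.42% in the EAF knockout pair against 4.67%. In SF pairs both were high at 19.2% ± 5.47 in wild type against 13.5%, and at 10.6% ± 2.53 in knockout against 4.79%. Both were low at 5.55% in EAF wild type, 20.6% in EAF knockout, 9.34% in SF wild type and 22.1% in SF knockout. Without SF KO 1 the SF knockout pairs had 17.7% called high, 8.74% both high and 25.2% both low. The knockout pairs therefore shared low states at these positions more often than high ones. The EAF wild-type pairs showed the reverse, as did the SF wild-type pairs on average. This contrast went with the share called high, so it does not by itself describe agreement. The expected both-low share was 0.816% to 1.44% in EAF wild-type pairs, against 4.47% to 6.44% observed. In the EAF knockout pair it was 10.05%, against 20.6% observed. Relative to the expected share, EAF wild-type pairs thus shared low states more. The opposite ratio was 0.409 in EAF wild type and 0.511 in EAF knockout. At the SF stage the order at these CpGs was turned round, with 0.663 ± 0.115 in wild type and 0.548 ± 0.0738 in knockout. The both-high coefficient was turned there too, at 0.342 ± 0.109 in SF wild type and 0.483 ± 0.0693 in SF knockout, or 0.439 without SF KO 1, against 0.446 and 0.324 at the EAF stage. Because an EAF wild-type oocyte defined the positions, EAF wild-type pairs are favoured there.

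Agreement was next split by CpG density, counted for each CpG as itself and the CpGs that any library listed up to 100 bp away. The gap between genotypes was widest where CpGs were sparse. In the class of 1 to 4 CpGs, 68.3% ± 3.76 of high CpGs in EAF wild-type pairs were high in the partner, against 25.9% in the EAF knockout pair. That knockout value rests on 29 both-high CpGs. With 5 to 9 the values were 60.9% ± 2.55 and 37.3%, and with 10 to 19 they were 50.9% ± 1.31 and 36.3%. The wild-type shares thus stood lower at each step to denser sequence, and the knockout pair had its lowest value of these 3 classes in the CpG-poor class. At the SF stage the values were 51.1% ± 11.4 in wild type and 27.1% ± 3.91 in knockout with 1 to 4 CpGs. They were 49.3% ± 7.88 and 34.8% ± 2.83 with 5 to 9, and 38.2% ± 5.96 and 31.5% ± 3.12 with 10 to 19. SF ranges overlapped in all 3 classes, with 4, 3 and 0 of the 10 knockout pairs outside the wild-type range. EAF ranges did not overlap in these 3 classes.

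**Figure D4:**
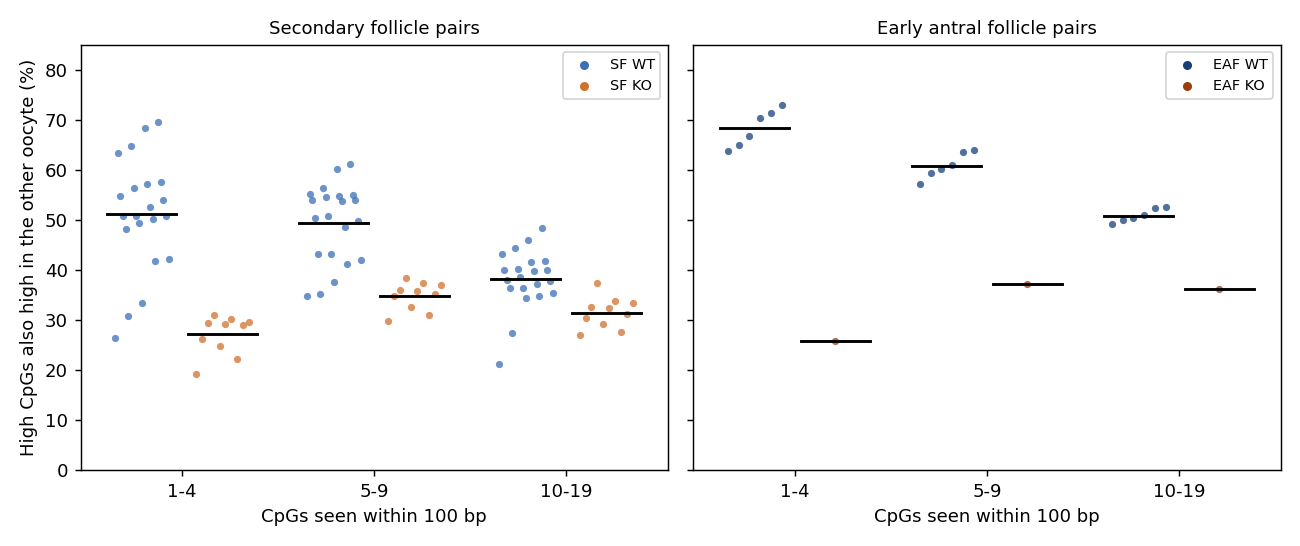
Share of high CpGs (%) also high in the other oocyte, by the number of CpGs seen within 100 bp. Points are pairs and bars are means, with SF pairs on the left and EAF pairs on the right. The EAF genotypes are 68.3% and 25.9% with 1 to 4 CpGs and draw closer, to 50.9% and 36.3%, with 10 to 19.

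The other measures followed the same pattern where CpGs were sparse. In the class of 1 to 4 CpGs the both-high coefficient was 0.675 ± 0.0295 in EAF wild type and 0.295 in EAF knockout, and 0.613 ± 0.158 and 0.313 ± 0.0567 at the SF stage. The opposite ratio was 0.412 ± 0.0549 and 0.763 at EAF, and 0.574 ± 0.104 and 0.760 ± 0.0816 at SF. With 10 to 19 CpGs the opposite ratio was 0.230 ± 0.0462 and 0.431 at EAF, and 0.334 ± 0.0740 and 0.481 ± 0.050 at SF. Of the 3 classes under 20 CpGs, the CpG-poor class had the opposite ratio nearest to 1 in each group. On the 674 CpG-poor CpGs read in every EAF oocyte both differences turned, to 0.345 in the coefficient and -0.460 in the opposite ratio, knockout minus wild type. The knockout pair held 1 both-high and 2 opposite CpGs there. Both partners were low at 43.0% ± 2.79 of CpG-poor CpGs in EAF wild-type pairs and at 81.6% in the knockout pair.

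CpG-dense sequence, with 20 or more CpGs within 100 bp, was almost uniformly low in every group. Both partners were low at 95.7% ± 2.19 of these CpGs in EAF wild type, 98.8% in EAF knockout, 97.6% ± 0.755 in SF wild type and 97.5% ± 0.831 in SF knockout. Pairs had 0 to 15 both-high CpGs in this class. No both-high CpG was found in 5 of 6 EAF wild-type pairs, 10 of 21 SF wild-type pairs and 4 of 10 SF knockout pairs. Counts of 0 allow shares of up to 0.240% to 0.741%, 0.121% to 0.589% and 0.0544% to 0.0894% in those pairs, so agreement of high CpGs could not be compared there.

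How widely a CpG was read changed the comparison. Of 629921 autosomal CpGs with at least 5 reads in any oocyte, 249645 were read in 1 oocyte only and 2453 in all 18. Between states made up 1.44% of readings at CpGs read in 1 oocyte, 44.3% at the 13673 CpGs read in 11 to 17, and 32.9% at those read in all 18, where the median depth was 72 reads. CpGs read in 11 or more oocytes made up 52.5% of the CpGs of an SF wild-type pair, 32.0% in SF knockout, 62.3% in EAF wild type and 51.5% in EAF knockout. The groups therefore differed in how much of each comparison rested on these often read CpGs. Why often read CpGs are so frequently between was not tested.

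In the share of high CpGs also high, the genotypes stood farther apart at CpGs read in 2 to 10 oocytes. The share of high CpGs also high in the partner was 65.8% ± 3.17 in EAF wild type and 37.6% in EAF knockout, and 49.7% ± 10.3 and 31.4% ± 1.84 at the SF stage. In 2 other measures they stood closer than over all shared CpGs, with SF opposite ratios of 0.495 and 0.612 and EAF both-high coefficients of 0.630 and 0.409, wild type first. At CpGs read in 11 to 18 oocytes it was 45.0% ± 3.68 and 30.6% at EAF. At SF it was 33.1% ± 6.62 in wild type and 35.3% ± 5.66 in knockout, so the order was turned there within overlapping spreads. Opposite states were near 1% of shared CpGs in this often read class, with 1.12% in SF wild type, 1.06% in SF knockout, 0.997% in EAF wild type and 0.785% in EAF knockout. On the 2553 CpGs read in every SF oocyte the SF difference in the both-high coefficient was 0.215 and in the opposite ratio -0.00545, against -0.131 and 0.161 over all shared CpGs. On the 8056 CpGs read in every EAF oocyte the opposite ratios were 0.0820 and 0.0821. The share of high CpGs also high in the partner was still lower in knockout on these sets, with differences of -8.05 points at SF and -13.1 points at EAF. The counts behind the opposite ratios on these sets were small. SF pairs held 4.57 opposite CpGs on average in wild type and 3.1 in knockout, and EAF pairs 31.3 and 15, so the ratios there are imprecise.

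**Figure D5:**
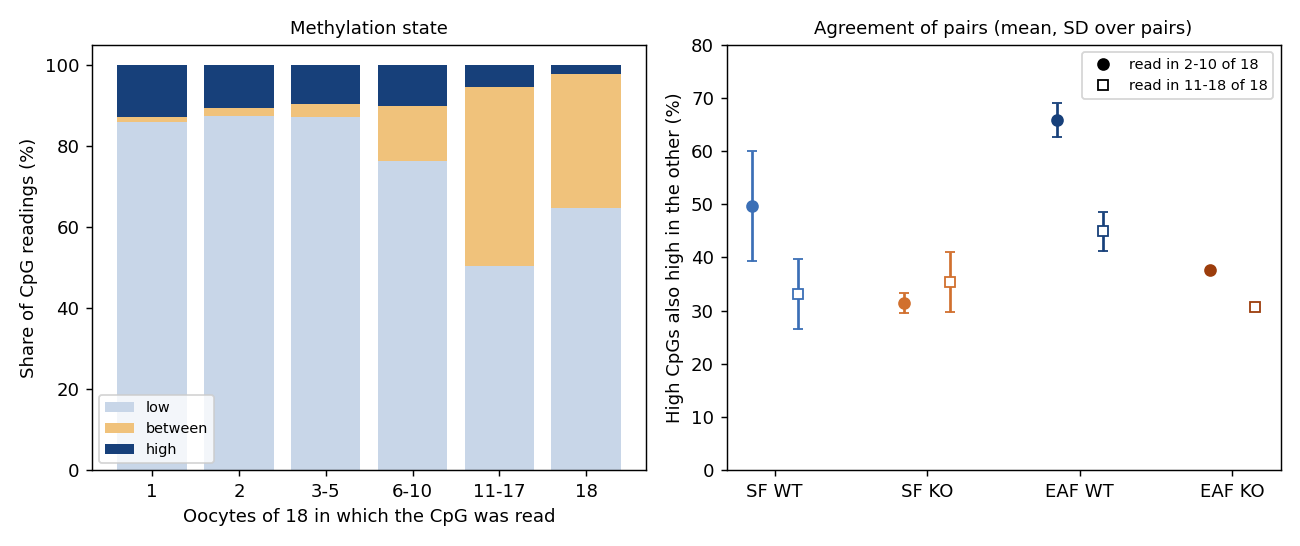
Left, share of CpG readings (%) that were low, between or high, by the number of the 18 oocytes in which the CpG was read. Right, mean share (%) of high CpGs also high in the other oocyte, with SD over pairs (EAF KO is 1 pair), at CpGs read in 2 to 10 (filled) or 11 to 18 oocytes (open). Between states reach 44.3% at CpGs read in 11 to 17 oocytes. At CpGs read in 11 to 18 the SF genotypes are at 33.1% and 35.3%.

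Disagreement was clustered along the DNA. Where a CpG was opposite in a pair, the nearest CpG compared within 100 bp was opposite in the same direction in 37.9% ± 1.61 of cases in EAF wild type and 32.0% in EAF knockout. The shares were 36.4% ± 9.08 in SF wild type and 40.8% ± 10.6 in SF knockout. It was opposite in the other direction in 2.35% to 3.42% of cases over the groups. Among all CpGs with such a neighbour, that neighbour was opposite in 3.35%, 2.66%, 3.91% and 5.33% of cases in the same order. Opposite states thus tended to run over neighbouring CpGs with the same oocyte high, in each group. Neighbours can lie on the same read, so these CpGs are not independent. The neighbour of a both-high CpG was both high in 66.1% ± 2.63 of cases in EAF wild type, 48.7% in EAF knockout, 47.5% ± 12.6 in SF wild type and 44.3% ± 4.79 in SF knockout.

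Pairs were also compared chromosome by chromosome, on small counts. The share of high CpGs also high in the partner was lower in knockout than in wild type on all 19 autosomes at EAF, the difference being smallest on chromosome 12, at -4.43 points, and largest on chromosome 16, at -48.9 points. At SF it was lower on 18 of 19, with chromosome 2 at -18.9 points, and higher on chromosome 12, at 2.17 points. The opposite ratio was higher in knockout on all 19 autosomes at EAF and on 18 of 19 at SF, the exception being chromosome 15 at -0.00464. The EAF knockout pair held only 5 (chromosome 19) to 33 (chromosome 12) both-high CpGs on an autosome, with 11 on chromosome 16. On most autosomes some SF wild-type pair held no both-high CpG. Values of single chromosomes are therefore imprecise.

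Whole groups were also described at CpGs read in all their oocytes. In EAF wild type 9483 CpGs were read in all 4 oocytes, of which 157 were high in all, 2298 low in all and 252 high in some and low in others. Of those high in at least 1 oocyte, 12.4% were high in all 4 and 19.8% were low in another. In the EAF knockout 311 of 23518 CpGs were high in both and 715 were opposite, so of the 1454 high in either 21.4% were high in both and 49.2% were low in the other. In SF wild type only 2582 CpGs were read in all 7 oocytes, with 3 high in all, 876 low in all and 44 mixed. In SF knockout 17989 were read in all 5, with 74 high in all, 2588 low in all and 1312 mixed. CpGs high in all oocytes made up 1.54% of those high in any SF wild-type oocyte and 3.08% in SF knockout, so at both stages this share was higher in knockout, unlike in pairs. Mixed CpGs made up 54.6% of those high in any SF knockout oocyte and 22.6% in SF wild type. The groups differ in the number of oocytes and in the CpGs read, so these shares stand side by side only.

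Single regions show what such disagreement looks like. Tiles of 1 kb on autosomes other than chromosome 18 were compared where at least 3 CpGs were read in enough oocytes. The minimum was 4 oocytes for SF wild type, 3 for SF knockout, 3 for EAF wild type and 2 for EAF knockout, which left 926 tiles. None was high in all wild-type oocytes and none in every oocyte. At least 1 oocyte was high in 57 tiles in EAF wild type, of which 8 were high in all that covered them and 6 held an opposite pair. In SF wild type 52 were high in some oocyte, 0 in all and 17 with an opposite pair. In SF knockout 24 were high in some oocyte, 0 in all and 6 with an opposite pair, and in EAF knockout 2, 0 and 1. Few tiles covered this widely were high in any oocyte, which limits what they can show about high sites.

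The tiles with the most opposite pairs were named, with coordinates in mouse build mm9 and gene annotation not used here. For SF wild type the first was chr10:78403001-78404000, with 5 of 15 pairs opposite. SF WT 4 stood at 80% there, on 5 CpGs and 30 summed counts, while SF WT 1, 2, 5, 6 and 7 stood at 8.77%, 15.4%, 13.1%, 4.85% and 20%. The EAF oocytes were all low in this tile, at 4.17% to 18.1%, so the high value rested on 1 thinly read oocyte. At chr19:30735001-30736000, with 4 of 21 pairs opposite, SF WT 7 stood at 99.1% on 108 summed counts, SF WT 1 at 63.5% and SF WT 2 at 44.3%. The other SF wild-type oocytes stood at 2.08% to 12.5%. The 5 SF knockout oocytes stood at 3.99% to 22.8% in that tile, and the EAF wild-type oocytes at 13.6%, 20.3%, 61.9% and 60.5%. The oocytes had read different numbers of CpGs in this tile, 11 in SF WT 1, SF WT 2, EAF WT 3 and EAF WT 4, 6 in SF WT 7 and 4 or 5 in the other wild-type oocytes, so these levels rest on different CpGs. At chr4:72340001-72341000, also with 4 of 21 pairs opposite, SF wild-type oocytes ran from 0% to 100% with a median of 11.8%. The 100% was SF WT 7 on 3 CpGs and 20 summed counts, and the 0% was SF WT 4 on 4 CpGs and 26. EAF wild-type oocytes ran from 3.57% to 82.5% there, and SF knockout from 4.77% to 68.4%.

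For SF knockout the most opposite pairs were 3 of 6, at chr15:39535001-39536000. SF KO 4 stood at 80.3% on 46 summed counts there, and SF KO 1, 2 and 3 at 2.23%, 6.41% and 14.1%. EAF KO 1 stood at 54.7% and EAF KO 2 at 8.70%, while the EAF wild-type oocytes were at 7.81%, 14.3% and 9.05%. At chr1:18068001-18069000 the SF knockout oocytes stood at 93.5%, 20%, 66.7% and 15.6%, with 2 of 6 pairs opposite, and SF wild-type oocytes at 100%, 29.8%, 6.25% and 0%. All 4 EAF wild-type oocytes stood at 0% in this tile, and EAF KO 1 and 2 at 28.6% and 100%. At chr1:85144001-85145000 SF KO 1 stood at 85.7%, and its 4 fellow SF knockout oocytes ran from 15.6% to 30.2%, with 2 of 10 pairs opposite. The SF wild-type oocytes there ran from 16% to 80%. In the named tiles a single oocyte, not always the same, carried the high value within its group. These tiles were picked for opposite states, so those states are no finding about them.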

How the data were processed

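MspI-cut DNA of single oocytes was bisulfite converted and amplified, per the labels. BSMAP 2.89 and build mm9 are named in the submitters' processing notes. The deposited tables give, per the file headers, each CpG's total and methylated read counts and their ratio, a fraction from 0 to 1. In all 18 tables the ratio equalled methylated over total within 0.01. Other filters: none is given in the sources used here. PCR copies are not independent molecules, and no 2 libraries held identical counts.

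From these, CpGs with at least 5 reads in both oocytes of a pair were compared, as defined above, with each CpG weighted equally and group values as means over pairs. The pair measures were tested on simulated data. The simulated partners had equal levels and no between states, unlike the real pairs. That test therefore cannot show how the measures compare across groups with unlike levels. The members, measures and tile rule (the 3 tiles with the most opposite pairs in SF wild type and in SF knockout, 3 high in all wild-type oocytes and 3 high in every oocyte, of which the last 2 sets were empty) were chosen with earlier results of these data known. The comparison by how many oocytes read a CpG, the share of high CpGs also high, and the positions set by an outside oocyte were added after seeing the data. Alternatives changed the read minimum, the high and low limits, the expected share, the CpGs, the density radius and the oocytes included. No test was made, as no animal is named. Sequences and genes were not used here. Computations ran in Python 3.11.15 with pandas 2.3.3, numpy 2.4.6, scipy 1.17.1 and matplotlib 3.10.9.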

Additional observations from a re-analysis of the deposited data

Results flagged for a closer look

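SF KO 1 lay well outside its group in 2 of the 12 comparisons made of an oocyte with its group, each over groups of 4 to 7 oocytes. Its mean both-high coefficient with the others was 0.455, while the others were at 0.350 to 0.371. Its mean both-low share was 49.8%, while the others were at 61.7% to 63.2%. This oocyte also had the largest share of high CpGs in its group, at 14.6%. Chance flags about 1 in 20 such comparisons for independent oocytes, which pairs that share oocytes are not.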

How the results depend on the processing

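All values here are knockout minus wild-type differences with no test, and a value counted as moved when it changed by more than the SD of pairs within a genotype, pooled over both where both have several pairs. Of 390 alternative values for 22 results, 307 moved by less than that SD, 70 by more and 13 changed sign. The SD of EAF wild-type pairs was small, so EAF values were counted as moved readily. The cause of the changes was not tested.

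At the SF stage, on CpGs read in every SF oocyte the both-high coefficient changed sign to 0.215 and the opposite ratio to -0.00545. There the coefficient was 0.101 with 5 to 9 and 0.207 with 10 to 19 CpGs within 100 bp, and the opposite ratio -0.125 with 5 to 9. As means of 1 kb tiles the coefficient was -0.237, the opposite ratio 0.280 and the share of high CpGs also high -18.3 points, and that share was -17.7 points with 1 CpG per 100 bp window. With 1 oocyte left out the both-low share ran from -8.66 to 2.57 points, positive without SF WT replicate 3 (0.249) and without SF KO replicate 1 (2.57). Among alternatives chosen after seeing the data, CpGs read in 2 to 10 of the 18 oocytes gave -2.74 points both high, a coefficient of -0.218 and -18.2 points also high. CpGs read in 11 to 18 gave a coefficient of 0.0941, an opposite ratio of 0.0718 and 2.23 points also high. CpGs read in at least 2 oocytes of each genotype and at most 10 of 18 gave -2.82 points both high, an opposite ratio of 0.0696 and -17.8 points also high. Without the 3 SF wild-type oocytes under 50000 CpGs the both-low share was 0.802 points.

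At the EAF stage the differences were -4.58 points both high, 19.4 points both low, -0.242 in the coefficient, 0.234 in the opposite ratio and -21.8 points also high. With at least 3 reads the coefficient was -0.193. With at least 10 reads both high was -3.34 points, the coefficient -0.298, the opposite ratio 0.349 and also high -25.4 points. With limits of 0.9 and 0.1 both high was -3.18 points and the opposite ratio 0.280. With limits of 0.6 and 0.4 both high was -7.75 points, the coefficient -0.182, the opposite ratio 0.158 and also high -17.1 points. On CpGs read in every EAF oocyte both high was -1.80 points, both low 12.4 points, the coefficient -0.0567, the opposite ratio 9.1e-05 and also high -13.1 points. Thinned to 5 reads, both high was -5.90 points, the coefficient -0.162, the opposite ratio 0.184 and also high -19.4 points. As tiles, both low was 13.2 points, the coefficient -0.503, the opposite ratio 0.109 and also high -48.6 points. With 1 CpG per 100 bp window both low was 22.9 points, the coefficient -0.301, the opposite ratio 0.283 and also high -29.2 points.

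Among EAF alternatives chosen after seeing the data, CpGs read in 2 to 10 oocytes gave -8.70 points both high, an opposite ratio of 0.260 and -28.2 points also high. CpGs read in 11 to 18 gave -2.31 points both high, 13.5 points both low, a coefficient of -0.136, an opposite ratio of 0.108 and -14.3 points also high. CpGs read in both EAF knockout and at least 2 EAF wild-type oocytes and at most 10 of 18 gave -6.95 points both high, 15.3 points both low, a coefficient of -0.348, an opposite ratio of 0.401 and -32.6 points also high. In the class of 1 to 4 CpGs the coefficient was -0.272 with density counted within 50 bp, -0.452 within 250 bp and -0.344 thinned to 5 reads. On CpGs read in every EAF oocyte it changed sign to 0.345 and the opposite ratio to -0.460, and with 5 to 9 CpGs the ratio was -0.0621. In the class of 1 to 4 the ratio was 0.444 at CpGs read in 2 to 10 oocytes.

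Leaving out an EAF knockout oocyte leaves no pair. No paired analysis was possible because the values come from no test and the labels do not tie replicate numbers to animals. The chief limits are the single EAF knockout pair, unnamed animals and the few CpGs read in all oocytes.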

Other observations

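On the X chromosome, which was left out above, 65.2% ± 4.35 (SD, n = 6 pairs) of high CpGs in EAF wild-type pairs were also high in the partner, and 40.4% in the EAF knockout pair. At the SF stage the shares were 46.0% ± 16.9 (SD, n = 21 pairs) in wild type and 41.3% ± 3.56 (SD, n = 10 pairs) in knockout. The opposite ratio on the X was 0.404 and 0.542 at EAF, and 0.535 and 0.637 at SF, wild type first. SF wild-type pairs shared 54 to 1283 X-linked CpGs, so single pairs there are imprecise.

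At CpGs low in an outside EAF wild-type oocyte, both partners were low in 64.3% ± 3.67 of cases in EAF wild-type pairs, 77.1% in the EAF knockout pair, 76.4% ± 7.75 in SF wild type and 65.7% ± 17.5 in SF knockout. Opposite states made up 1.77%, 1.18%, 1.18% and 2.51% of these CpGs in the same order. Of them 1.66%, 1.00%, 0.982% and 1.92% were high in an oocyte of the pair on average. The 4 pairs with SF KO 1 had both partners low at 44.7% to 46.7%. Without that oocyte SF knockout pairs were at 79.2% ± 1.12 (SD, n = 6 pairs) both low, above the SF wild-type mean, with 1.67% opposite and 1.31% high.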
